A study of Mus musculus with 10 samples.

Results

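Mitochondrial ribosomal protein genes were followed in heart muscle cells (cardiomyocytes) from mice with a knockout of Actn2. This gene encodes alpha-actinin-2, which ties together the thin filaments of neighbouring sarcomeres, the contractile units of muscle. The members are the genes of the deposited table with a symbol made of Mrpl or Mrps and a number, with or without a letter after it. Of 23337 genes in the table, 76 met this rule, 47 of them Mrpl genes (large subunit) and 29 Mrps genes (small subunit). All 76 passed the filter on low counts, and a member had between 123 and 9993 reads in a sample.

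The mitochondrial ribosome translates the few messenger RNAs that mitochondria make from their own DNA, and the products are membrane subunits of the respiratory chain and of ATP synthase. All of its proteins are encoded in the nucleus, made in the cytosol and imported, while its RNAs are transcribed inside the mitochondrion. The small subunit binds the messenger and decodes it, and the large subunit forms the peptide bonds. Some of the proteins have counterparts in bacterial ribosomes, and others occur only in mitochondria. The heart depends strongly on oxidative metabolism, and inherited defects of several of these genes, such as MRPL3, MRPL44 and MRPS22, are known to cause cardiomyopathy in humans.

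The knockout group held 5 mice with 2 floxed Actn2 alleles (Actn2-FF), and the heterozygote group, which served as the control, held 5 mice with 1 floxed and 1 normal allele (Actn2-F+). A floxed allele is one in which the recombinase Cre can cut out a piece of the gene. Every mouse of both groups was given an adeno-associated virus, AAV9-cTNT-Cre, on postnatal day 1, and its cells were taken on postnatal day 14. The cardiac troponin T promoter of the virus drives Cre in heart muscle cells, and the cells were released with collagenase and collected by flow sorting. There was no group without Cre or without a floxed allele.

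Total counts ran from 8086656 to 25237696 per sample, with heterozygote 1 the deepest. Actn2 itself was at 1217 ± 55.3 CPM in the knockout and 3181 ± 358 CPM in the heterozygote (SD, n = 5 each), and the groups did not overlap. The knockout thus kept 38.3% of the heterozygote's Actn2 RNA, and these data hold no measure of the protein. CPM stands for counts scaled by the library total after TMM normalisation. All 8 cardiomyocyte markers examined were detected, and their summed level was 98680 to 122536 CPM in the heterozygote and 93811 to 118712 CPM in the knockout. The 9 endothelial markers summed to 488 to 770 CPM in the heterozygote and 323 to 561 CPM in the knockout, so blood vessel transcripts were measured in these sorted cells too. Fibroblast markers (7 genes) stood at 296 to 489 and 271 to 592 CPM, mural cell markers (5 genes) at 160 to 268 and 186 to 285 CPM, and leukocyte markers (9 genes) at 13.5 to 37.4 and 8.03 to 11.3 CPM, in heterozygote and knockout. Among the mural markers Cspg4 rose from 36.98 to 132 CPM (log2 fold change 1.84), and the other 4, with log2 fold changes of -0.65 to -0.33 and none called, summed to 133 to 229 CPM in the heterozygote and 70.2 to 154 CPM in the knockout. Of 6 erythroid markers, the 4 globin genes Hba-a1, Hba-a2, Hbb-b1 and Hbb-b2 had no count in any sample. Hba-a1 and Hba-a2 are annotated over almost the same bases, and so are Hbb-b1 and Hbb-b2. Reads that overlap more than 1 gene were left out of the counts, so these zeros do not show that globin RNA was absent.

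RefSeq promoter sequences (build GRCm38.p6, which shares its coordinates with mm10) were matched by symbol to 67 of the 76 members. They show which letters these genes carry at their starts. The windows printed here run from 150 bases before to 25 bases after the annotated start. Mrpl12, Mrps9 and Mrpl45 are shown as falling members with letters known from binding sites of nuclear respiratory factor 1 (NRF1), a regulator of nuclear genes for mitochondria. Mrpl33 is shown as the member with the highest fold change, which was not called, and it has letters of the ETS family, to which the GABPA factor belongs. Capitals mark NRF1-type letters in the first 3, with any base allowed at the fifth position, and CCGGAAG in the last, read on either strand. The windows lie on the plus strand at chr11:120484487-120484661, chr11:97315566-97315740, chr1:42851083-42851257 and chr5:31613801-31613975, in the order of the lines below.
Mrpl12: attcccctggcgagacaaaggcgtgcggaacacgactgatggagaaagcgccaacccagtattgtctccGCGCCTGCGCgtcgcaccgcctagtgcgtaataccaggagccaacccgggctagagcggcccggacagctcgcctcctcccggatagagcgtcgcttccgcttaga
Mrpl45: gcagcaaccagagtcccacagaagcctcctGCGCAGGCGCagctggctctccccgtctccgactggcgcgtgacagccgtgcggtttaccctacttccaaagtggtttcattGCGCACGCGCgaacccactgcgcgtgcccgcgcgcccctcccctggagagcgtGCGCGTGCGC
Mrps9: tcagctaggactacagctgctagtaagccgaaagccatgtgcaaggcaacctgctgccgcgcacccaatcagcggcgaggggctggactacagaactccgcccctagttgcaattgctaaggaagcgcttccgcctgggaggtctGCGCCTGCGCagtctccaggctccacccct
Mrpl33: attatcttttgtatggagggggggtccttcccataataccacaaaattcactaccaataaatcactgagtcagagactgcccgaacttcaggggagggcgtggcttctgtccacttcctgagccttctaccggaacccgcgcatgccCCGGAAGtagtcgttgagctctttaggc

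The comparison of genotypes asked how far the RNAs for mitochondrial ribosomal proteins differed with the knockout of Actn2. In the knockout, 38 of the 76 members fell and 0 rose in edgeR's quasi-likelihood test (adjusted p below 0.05 over 11870 tested genes), against 8.64% of all tested genes called lower and 10.2% called higher. At an unadjusted p under 0.05, 54 members were lower and 0 higher, against 15.7% and 16.7% of all tested genes. DESeq2 called 42 members lower and 0 higher (11% and 11.2% of genes), and voom 38 and 0 (9.64% and 11.7%). The log2 fold change was negative for 74 members, and its median over the 76 was -0.34, a level 20.8% below the heterozygote, where the median of all tested genes was 0.00. The called falls ran from -0.30 (Mrpl10) to -0.69 (Mrpl12), and the members as a whole from -0.69 to 0.27 (Mrpl33). The groups did not overlap in 25 members, all lower in the knockout, against 6.32% of tested genes with such a separation downward and 8.41% upward. In bulk samples, fewer cells of a type and less RNA per cell cannot be told apart.

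**Figure D1:**
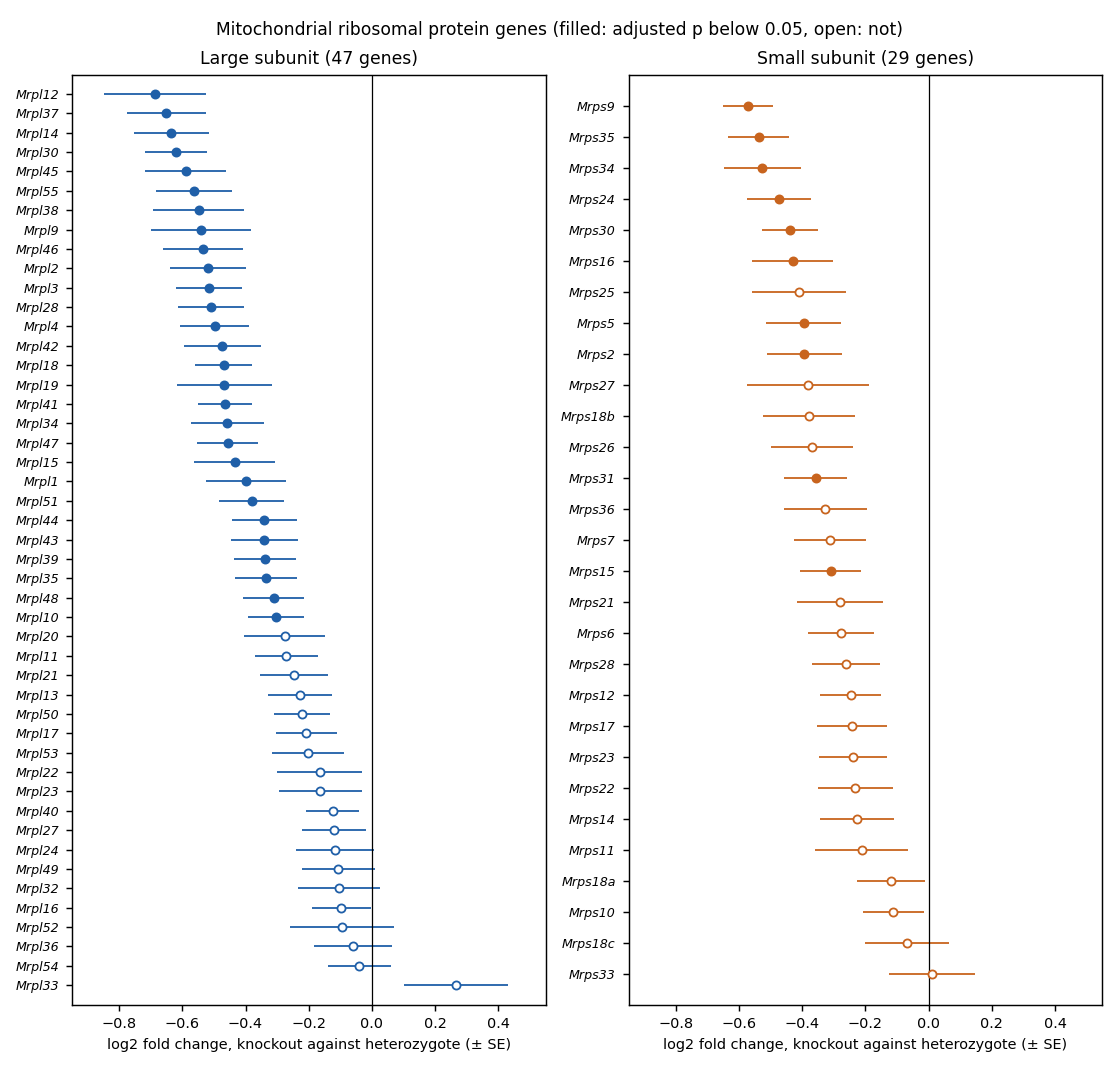
Log2 fold change of each of the 76 mitochondrial ribosomal protein genes (x axis, knockout against heterozygote, bars ± SE), large subunit on the left and small subunit on the right, filled where the adjusted p is below 0.05. Every filled point lies to the left of 0, and Mrpl33 and Mrps33 are the members to the right of it.

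The number of members called lower varied with the animal left out. It was 24 without knockout 2 and 23 without knockout 5, and 27 to 43 when any other animal was left out. Leaving out an animal can change the calls of every gene, and the share of all genes called in these fits is not given here. Whether the change in these counts was particular to the members was therefore not tested. The median per subunit stayed between -0.40 and -0.27 in these 10 fits. Of the 38 calls, 22 were kept in all 10 of these fits, and 16 in those and in all 11 other settings. The share of all lower calls that was kept in the same fits is not given here. The 16 were Mrpl2, Mrpl3, Mrpl4, Mrpl14, Mrpl18, Mrpl28, Mrpl30, Mrpl37, Mrpl38, Mrpl41, Mrpl46, Mrpl55, Mrps9, Mrps24, Mrps30 and Mrps35.

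Marker genes of other cell types differed between the genotypes too. The median log2 fold change was -0.43 over the 9 endothelial markers, of which Egfl7 fell, and -0.87 over the 4 leukocyte markers that were tested, of which Csf1r fell, with summed leukocyte levels that did not overlap between the groups. Of the cardiomyocyte markers Tnni3 fell (-0.53, edgeR adjusted p 0.00165). With the mean of the endothelial markers as a covariate, 17 members were called lower and 0 higher. All calls dropped from 2241 to 1051 in that fit (4.33% of genes lower and 4.52% higher). The medians were -0.37 (large) and -0.32 (small), and -0.34 and -0.31 without the covariate. The covariate itself differed between the genotypes, with a mean of 5.81 log2 CPM in the heterozygote and 5.36 in the knockout. The fit therefore cannot cleanly separate it from genotype. The part of other cell types in the fall of the members was not tested.

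The animals of a group differed from one another in these genes as a block. Relative to the heterozygote mean, the median deviation over all members on the log2 CPM scale was 0.17 in heterozygote 2 and -0.13 in heterozygote 3, and between -0.01 and 0.01 in the other 3. In the knockouts it was -0.12, -0.45, -0.28, -0.33 and -0.45 for animals 1 to 5. Knockout 1 thus lay beside heterozygote 3, with 27 of 76 members below every heterozygote, where knockouts 2 to 5 had 69, 48, 59 and 66. Together the 76 genes took 0.613% to 0.739% of all counts in heterozygotes and 0.498% to 0.614% in knockouts, so the ranges met at their edges. The 2 subunits kept step within each animal, with medians that differed by at most 0.13 on that scale, in knockout 4.

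**Figure D2:**
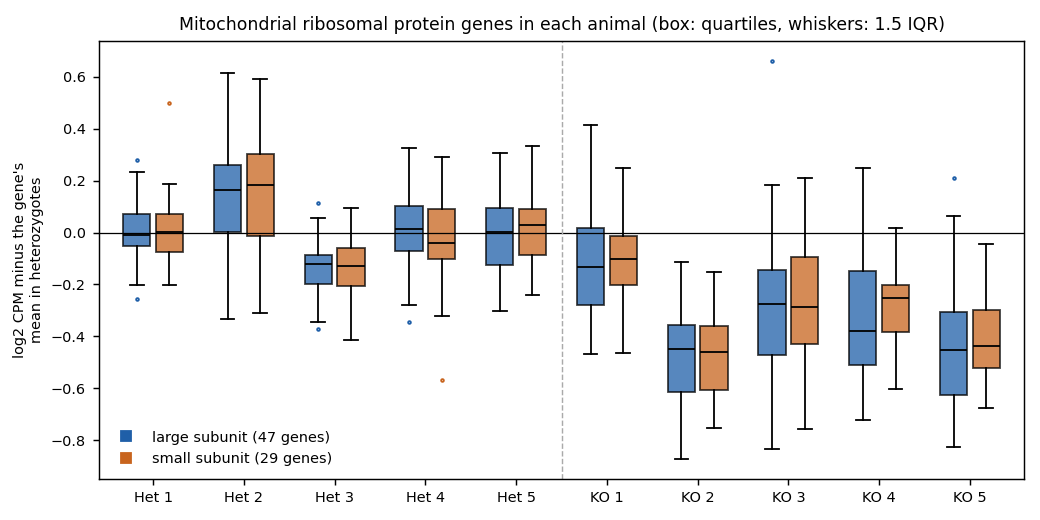
Deviation of each member from its mean in heterozygotes (y axis, log2 CPM) in each of the 10 animals, as boxes for 47 large-subunit and 29 small-subunit genes. Knockouts 2 to 5 lie lowest, and the boxes of knockout 1 lie at the height of those of heterozygote 3.

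Large and small subunit were compared by counts and medians, without a test between them. Of the large-subunit genes, 28 of 47 fell (59.6%), and of the small-subunit genes 10 of 29 (34.5%), with 0 risen in either. The medians were closer than these counts, at -0.34 and -0.31. Without knockout 5 the counts were 17 and 6, and without knockout 2 they were 19 and 5. The share of all genes called in these fits is not given here. Symbols are not a perfect guide to place, since the products of Mrps18a and Mrps30 sit in the large subunit and that of Mrps36 is now known as a part of the oxoglutarate dehydrogenase complex. With these 3 reassigned, 29 of 49 large and 9 of 26 small genes fell.

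The summed level of each subunit was lower in the knockout too. Large-subunit genes summed to 4442 to 5507 CPM in heterozygotes and 3340 to 4335 CPM in knockouts, and small-subunit genes to 1915 to 2336 and 1492 to 1910 CPM. For both sums every knockout lay below every heterozygote, by a narrow margin between knockout 1 and heterozygote 3. The ratio of the large to the small sum was 2.33 ± 0.0269 in the heterozygote and 2.23 ± 0.0295 in the knockout (SD, n = 5), with ranges of 2.31 to 2.36 and 2.20 to 2.27 that did not overlap. When the sums were made per kilobase of exon, the ranges did overlap, at 2.33 to 2.42 and 2.25 to 2.34. A sum weighs the abundant genes, among them Mrpl12 and Mrpl42, more than the others.

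Among the large-subunit genes with the largest falls, Mrpl12 came first. It encodes the L12 protein of the stalk, through which translation factors dock on the ribosome, and its product also binds the mitochondrial RNA polymerase. Mrpl12 (chromosome 11, 120484669 to 120488754, mm10) was at 324.9, 501.7, 304.0, 274.7 and 275.2 CPM in heterozygotes 1 to 5 and at 260.4, 196.5, 184.9, 215.6 and 186.6 CPM in knockouts 1 to 5. All knockouts lay below all heterozygotes, and heterozygote 2 stood far above the rest of its group. The log2 fold change was -0.69 (edgeR adjusted p 0.00858 with SE 0.162), and the call was lost with the endothelial covariate (-0.72, adjusted p 0.0616).

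Mrpl37 encodes a protein of the large subunit without a bacterial counterpart, and lies on chromosome 4 at 107055874 to 107066866. Its level was 188.1, 227.8, 164.4, 145.8 and 154.6 CPM in the heterozygotes and 128.3, 113.5, 99.2, 117.3 and 102.8 CPM in the knockouts. The groups were apart, and the log2 fold change was -0.65 (edgeR adjusted p 0.00239 with SE 0.125).

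Mrpl14, the counterpart of a bacterial protein at the face that meets the small subunit, lies on chromosome 17 at 45686372 to 45698495. It was at 64.8, 76.9, 51.6, 68.5 and 69.2 CPM in heterozygotes and 49.2, 35.8, 46.2, 39.7 and 42.3 CPM in knockouts. The lowest heterozygote, number 3, was only slightly above the highest knockout, number 1. The fold change was -0.63 on the log2 scale (edgeR adjusted p 0.00182 with SE 0.118).

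Mrpl30 (chromosome 1, 37890553 to 37898333), the counterpart of bacterial L30, had the smallest SE of these 5 large-subunit genes. Heterozygotes had 165.1, 168.1, 158.5, 185.0 and 170.5 CPM, and knockouts 122.3, 93.7, 123.2, 112.1 and 99.7 CPM. A wide gap separated the groups, with a log2 fold change of -0.62 (edgeR adjusted p 0.000580 with SE 0.0982).

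Mrpl45 encodes a protein at the end of the exit tunnel, where the ribosome meets the inner membrane. It lies on chromosome 11 at 97315716 to 97329920, and was at 128.9, 153.4, 102.8, 114.0 and 106.5 CPM in heterozygotes and 99.2, 81.3, 73.7, 81.2 and 67.5 CPM in knockouts. Here too knockout 1 was next to heterozygote 3. The log2 fold change was -0.59 (edgeR adjusted p 0.00552 with SE 0.129), and with the endothelial covariate the call was lost (-0.56, adjusted p 0.0650).

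In the small subunit the largest and most even fall was that of Mrps9, which encodes a protein of the head of the subunit. Mrps9 (chromosome 1, 42851233 to 42905683) stood at 91.5, 86.3, 82.7, 85.8 and 89.2 CPM in heterozygotes and 64.2, 56.9, 59.0, 57.3 and 56.0 CPM in knockouts. The 5 values of each group lay close together and the groups were far apart. Of all members Mrps9 had the lowest adjusted p (log2 fold change -0.57, edgeR adjusted p 0.000200 with SE 0.0791).

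Mrps35 and Mrps34 encode proteins found only in mitochondrial ribosomes. Mrps35 (chromosome 6, 147042770 to 147070902) was at 132.6, 147.4, 111.1, 121.8 and 120.6 CPM in heterozygotes and 91.4, 78.6, 82.4, 90.5 and 93.4 CPM in knockouts, without overlap (log2 fold change -0.54, edgeR adjusted p 0.00141 with SE 0.0961). Mrps34 (chromosome 17, 24895120 to 24896273) was at 102.4, 133.0, 98.2, 95.6 and 87.8 CPM and at 85.0, 64.4, 76.5, 69.3 and 64.1 CPM. Its groups were apart by a small gap between heterozygote 5 and knockout 1 (-0.53, edgeR adjusted p 0.00748 with SE 0.121), and with the endothelial covariate the value was -0.54 without a call (adjusted p 0.0657).

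Mrps24, the counterpart of bacterial S3 at the entry of the messenger channel, lies on chromosome 11 at 5703983 to 5707699. It had 101.9, 106.3, 90.5, 97.0 and 111.7 CPM in heterozygotes and 84.5, 60.03, 75.1, 71.7 and 74.3 CPM in knockouts, with no overlap (log2 fold change -0.47, edgeR adjusted p 0.00455 with SE 0.100). Mrps30 (chromosome 13, 118380110 to 118387252) carries a small-subunit symbol for a large-subunit protein. Its values were 77.8, 73.9, 77.1, 62.5 and 70.6 CPM against 56.1, 49.95, 55.6, 55.6 and 50.2 CPM, again apart (-0.44, edgeR adjusted p 0.00347 with SE 0.0891).

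**Figure D3:**
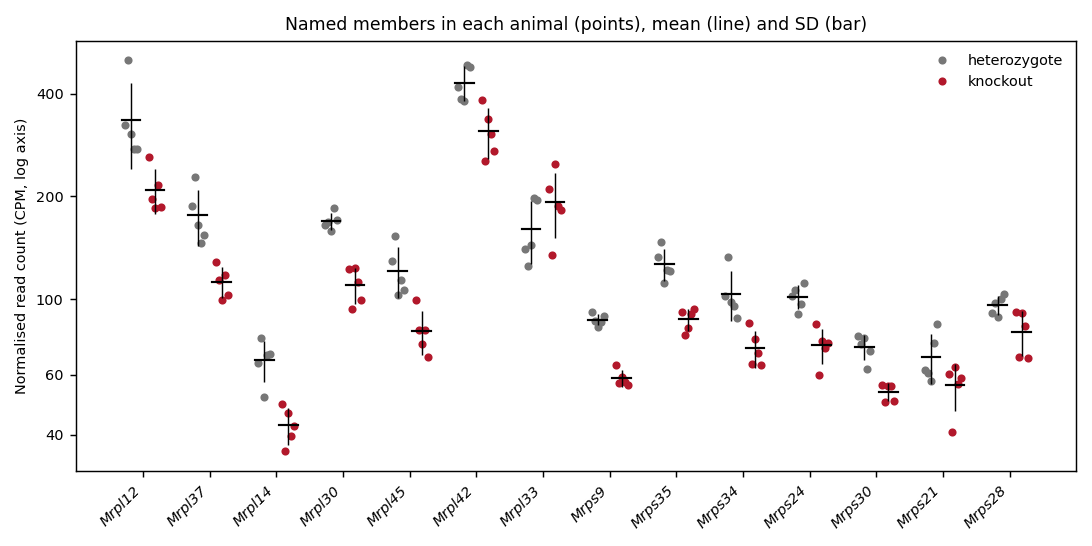
CPM (log axis) of 14 members in each animal, heterozygotes in grey and knockouts in red, with the group mean (line) and SD (bar). For the falling genes except Mrpl42 the red points lie below the grey ones, while for Mrpl33, Mrps21 and Mrps28 the groups overlap.

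Levels between genes were compared per kilobase of summed exon length (FPKM). Mrpl42, a protein of the large subunit without a bacterial counterpart, had the highest mean over the 10 animals, 557 FPKM, followed by Mrpl33 with 379, Mrpl12 with 287 and Mrpl30 with 202. In the small subunit Mrps21 (152) and Mrps28 (122) were highest. The medians were 59.6 FPKM for the large and 55.2 FPKM for the small subunit. Mrpl17, Mrpl19 and Mrps25 were lowest, at 8.04, 9.28 and 10.0 FPKM, and all have a long annotated transcript. Reads that overlap 2 genes were left out of the counts by the program's defaults. Mrps25 shares 3536 of its 6065 exon bases with Nr2c2 and Mrpl19 shares 1145 of 5000 with AW146020. Mrpl41 shares 1002 of 2423 with Wdr85 and Mrpl24 shares 355 of 949 with Rrnad1. The levels of these genes are therefore uncertain.

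Mrpl42 (chromosome 10, 95480806 to 95501927) was at 419.7, 387.3, 380.4, 487.1 and 480.4 CPM in heterozygotes and 384.8, 253.3, 338.3, 304.1 and 272.3 CPM in knockouts. Knockout 1 overlapped the heterozygotes and the other 4 lay below them. It fell by 0.47 on the log2 scale (edgeR adjusted p 0.0143 with SE 0.122), and with the endothelial covariate the value was -0.43 without a call (adjusted p 0.142).

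Mrpl33 had a positive fold change and was not called. Its product is the counterpart of bacterial L33, a small protein of the large subunit, and it lies on chromosome 5 at 31613951 to 31622644. Heterozygotes had 140.2, 125.0, 143.7, 197.6 and 194.9 CPM and knockouts 209.9, 135.0, 249.4, 187.3 and 182.0 CPM. The values of both groups were mixed, with knockout 3 highest and heterozygote 2 lowest. The log2 fold change was 0.27 (edgeR adjusted p 0.289 with SE 0.165), and was positive in all fits. Mrpl33 has a summed exon length of 466 bases. With an offset for gene length, Mrpl33 was called higher (0.38, adjusted p 0.00594).

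Mrps21 and Mrps28, the highest small-subunit genes per length, were not called. Mrps21 (chromosome 3, 95862652 to 95870619) had 61.7, 60.7, 57.5, 74.5 and 84.5 CPM in heterozygotes and 60.2, 40.8, 63.2, 56.2 and 58.8 CPM in knockouts (log2 fold change -0.28, edgeR adjusted p 0.167 with SE 0.135). Mrps28 (chromosome 3, 8802146 to 8923857) had 91.1, 97.3, 88.6, 99.9 and 103.2 CPM against 91.5, 67.7, 91.2, 83.1 and 67.2 CPM (-0.26, edgeR adjusted p 0.106 with SE 0.107). In both the groups overlapped, and in both knockout 2 was among the 2 lowest animals.

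The remaining members were described by their place in the ribosome. Of 5 genes for proteins around the peptidyl transferase centre, where peptide bonds form, Mrpl2, Mrpl3 and Mrpl4 fell, by 0.52, 0.52 and 0.50 on the log2 scale. Mrpl16 (-0.10) and Mrpl27 (-0.12) did not pass, so neighbours at this site did not share a call. The stalk genes gave 2 falls among 3, Mrpl12 and Mrpl10 (-0.30), while Mrpl11 was at -0.27 and not called. Of 6 genes of the central protuberance, the part of the large subunit that faces the small one at the top, 4 fell, with Mrpl38 at -0.55, Mrpl46 at -0.54, Mrpl18 at -0.47 and Mrpl48 at -0.31, while Mrpl40 (-0.12) and Mrpl27 did not pass. Around the exit tunnel 3 of 7 fell, namely Mrpl45, Mrpl47 (-0.46) and Mrpl44 (-0.34). Mrpl17, Mrpl22, Mrpl23 and Mrpl24 were between -0.21 and -0.12 without a call.

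Members were also divided by origin. Genes with a bacterial counterpart fell in 17 of 30 cases in the large and 6 of 16 in the small subunit, with medians of -0.37 and -0.28. Genes specific to mitochondria fell in 11 of 17 and 3 of 10 cases, with medians of -0.34 and -0.37. The other bacterial-type large-subunit genes that fell were Mrpl1, Mrpl9, Mrpl15, Mrpl19, Mrpl28, Mrpl34, Mrpl35 and Mrpl55, from -0.34 (Mrpl35) to -0.56 (Mrpl55). The other mitochondrion-specific ones were Mrpl39, Mrpl41, Mrpl43 and Mrpl51, from -0.34 to -0.47. In the small subunit Mrps2, Mrps5, Mrps15, Mrps16 and Mrps31 completed the calls, from -0.31 to -0.43. Mrps12, the counterpart of S12 in the decoding centre, was at -0.25 (adjusted p 0.0877), and Mrps36 at -0.33 (adjusted p 0.103).

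The members nearest 0 were Mrpl54 (-0.04), Mrpl36 (-0.06), Mrps18c (-0.07) and Mrps33 (0.01, edgeR adjusted p 0.964). Mrps18c belongs with Mrps18a (-0.12) and Mrps18b (-0.38) to a family of 3 related proteins, each with its own place in the ribosome, and none of the 3 was called. These values turned positive for Mrpl54, Mrpl36 and Mrps18c with the length offset.

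Gene length moved with the fold changes of all genes. The median summed exon length was 1053 bases for members and 2961 for all tested genes. Among the 2971 shortest tested genes (up to 1882 bases), which include 64 members, 15.5% were called lower and the median log2 fold change was -0.11. Among the 2968 longest (from 4457 bases) it was 0.14, with 3.23% called lower. With the tested genes in 4 classes of length, the median of the members was -0.32, -0.33, -0.40 and -0.41 from the shortest to the longest class (64, 6, 3 and 3 members), each below that of its class. With a per-animal offset smoothed over gene length, 29 members were called lower and 1 higher, against 8.91% and 8.96% of all tested genes in that fit, and the medians were -0.27 for the large and -0.20 for the small subunit.

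**Figure D4:**
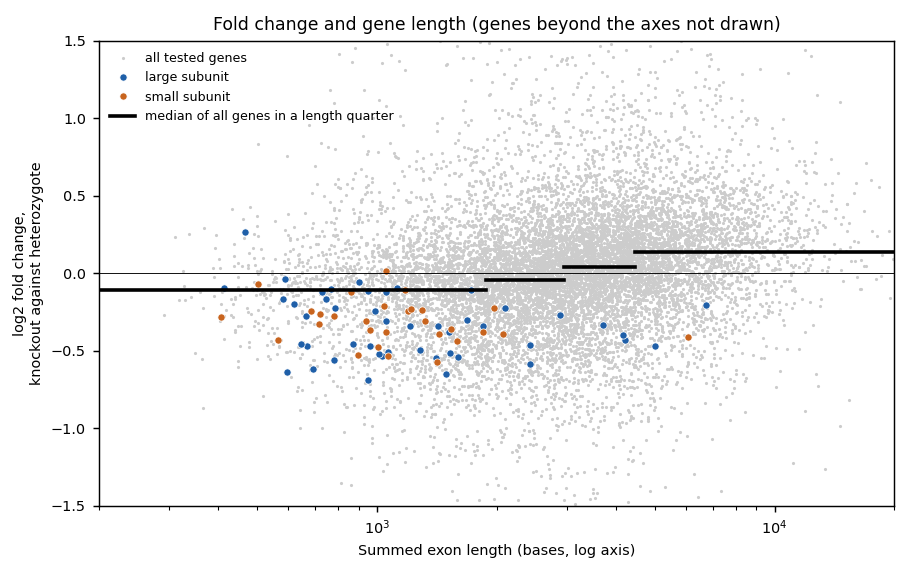
Log2 fold change (y axis) against summed exon length (x axis, log scale) for all tested genes in grey and for large-subunit and small-subunit members in colour, with black lines for the median of all genes in each of 4 length classes. The line rises from -0.11 to 0.14, and most members lie below it.

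Partner genes were taken from lists by function. The lists cover mitochondrial translation, transcription and upkeep of mitochondrial DNA, and regulators of nuclear genes for mitochondria. Of 82 partner genes in the table, all tested, 22 fell (26.8%) and 1 rose (1.22%). Among all tested genes, 8.64% were called lower and 10.2% higher. Without heterozygote 1, knockout 2, knockout 3 or knockout 5 the falls numbered 13, 14, 12 and 12, and the share of all genes called in these fits is not given here. Ribosomal subunits with other symbols gave 3 falls among 7. Ptcd3, which is placed at the messenger entry of the small subunit, had 190 CPM in heterozygotes and 130 in knockouts, and fell (-0.56, edgeR adjusted p 0.00347 with SE 0.113). Dap3, the GTP-binding protein of the small subunit, was at -0.37, and Ict1, a release factor that is also part of the large subunit, at -0.35. Gadd45gip1, Aurkaip1, Chchd1 and Mrp63 were not called, at -0.33, -0.29, -0.21 and -0.02.

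Translation factors gave 5 falls among 13. Tufm, the elongation factor that brings transfer RNA to the ribosome, fell by 0.58 (edgeR adjusted p 0.00330 with SE 0.117), and its exchange factor Tsfm by 0.39. Oxa1l, which inserts the new proteins into the inner membrane, was at -0.51, the recycling factor Mrrf at -0.48 and the initiation factor Mtif2 at -0.43, all called. Gfm1 and Gfm2 (-0.27 and -0.25) were not. Assembly factors and other genes grouped with them, such as Lrpprc, gave 7 falls among 24. The falls ran from Rpusd3 (-0.65) and Rbfa (-0.51) to Gtpbp5 and Mtg1 (both -0.39), with Rnmtl1, Eral1 and Lrpprc between them.

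Aminoacyl-tRNA synthetases, which load transfer RNAs, and related enzymes gave 6 falls and 1 rise among 21. The falls were Fars2 (-0.62), Qrsl1 (-0.53), Yars2 (-0.52), Sars2 (-0.50), Cars2 (-0.49) and Gars (-0.28), which also serves the cytosol. Ears2, the glutamyl-tRNA synthetase, rose from 26.7 to 47.1 CPM without overlap (log2 fold change 0.81, edgeR adjusted p 0.000780 with SE 0.133), while Qrsl1, a subunit of the enzyme that amidates a product of Ears2, was among the falls. Of 8 genes for transcription and upkeep of mitochondrial DNA, Mterfd3 fell (-0.73, edgeR adjusted p 0.000759 with SE 0.120), while Polrmt (-0.21), Tfam (-0.29) and Tfb2m (-0.36) did not pass.

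Of 9 regulators of nuclear genes for mitochondria, edgeR called 0, with 2 lower and 2 higher at an unadjusted p under 0.05. DESeq2 called 1 higher (Pprc1) and voom 2 higher (Pprc1 and Myc). Ppargc1a was at -0.34 (SE 0.246, adjusted p 0.379), Esrra at -0.31 (adjusted p 0.143), Nrf1 at 0.11 (0.633), Gabpa at 0.12 (0.563) and Yy1 at 0.17 (0.594). Pprc1 came nearest to the threshold, at 0.41 (adjusted p 0.0505), and Myc was at 0.66 (adjusted p 0.0888).

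For scale, the median was -0.44 over 82 tested respiratory chain genes chosen by symbol, with 50 called lower, and -0.06 over 72 cytosolic ribosomal protein genes, with 3 called lower. No gene of either list was called higher by edgeR, DESeq2 or voom, and at an unadjusted p under 0.05 edgeR had 0 higher in both and voom 2 in the cytosolic list. The members of the mitochondrial ribosome thus had a median between those of the 2 lists, which were set beside them without a test.

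**Figure D5:**
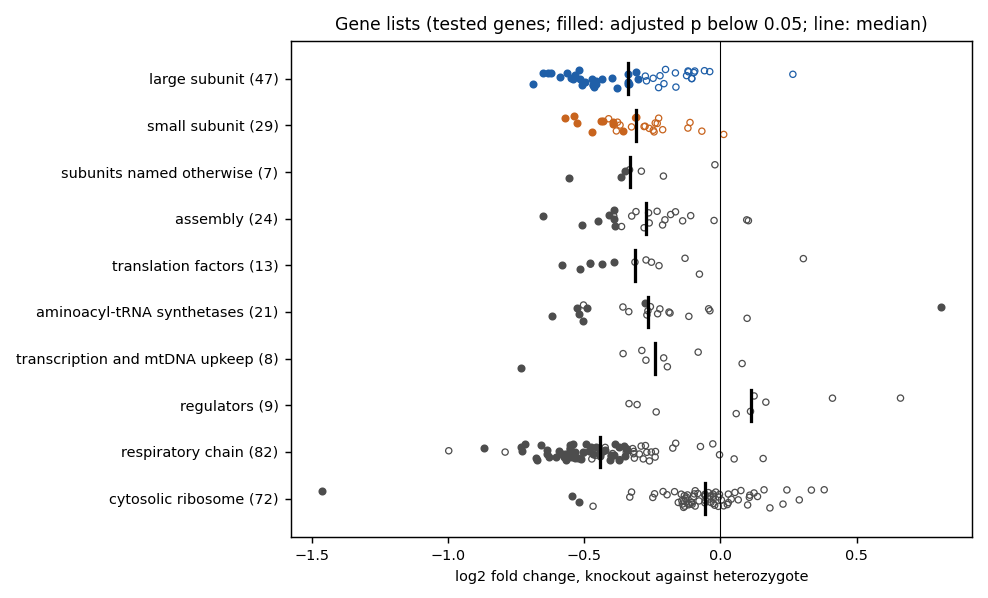
Log2 fold change (x axis) of the tested genes of each list (rows, number of genes in brackets), filled where the adjusted p is below 0.05, with a black line at the median. The medians of the 2 subunits (-0.34 and -0.31) lie between those of the cytosolic ribosome (-0.06) and the respiratory chain (-0.44).

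The promoter windows of 300 bases (250 before to 50 after the start) were searched on both strands for short runs of letters. The NRF1-type letters capitalised above occurred in 12 of 67 members (17.9%) and in 4.78% of 27025 windows of all genes. A stricter form contained in them, with 1 base fixed at the free position, was in 3 members (4.48%) and 0.977% of all. CCGGAAG was found in 23 members (34.3%, against 9.12%) and AAGATGGC, letters of the YY1 factor, in 12 (17.9%, against 2.88%). CACGTG was in 5 members (7.46%, against 7.24%) and GGGCGG in 33 (49.3%, against 35.9%). Among the 32 fallen members with a window, 8 held the NRF1-type letters and 6 held CCGGAAG. Among the 35 that did not pass, the numbers were 4 and 17. The stricter form was in 2 fallen members and 1 that did not pass, and AAGATGGC in 4 and 8. CACGTG was in 2 and 3 of them, and GGGCGG in 16 and 17. A link between letters and calls was not tested. In the printed windows the NRF1-type letters began 81 bases before the start of Mrpl12, 5 before that of Mrps9, and 120 and 38 before and 15 after that of Mrpl45, and the ETS-type letters 3 before that of Mrpl33. These are matches of letters and no binding was measured.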

How the data were processed

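Libraries came from polyadenylated RNA of 10 mice (5 knockouts, 5 heterozygotes), through amplified cDNA from a low-input kit, per the labels' protocols. The authors deposited unnormalised whole-number counts of reads per gene. These were made with featureCounts 1.5.1 (4 threads, no other option), per the file headers, against a UCSC mm10 annotation archived in 2012. The submitters' processing notes name STAR 2.5.3a and Subread 1.5.2. The program's defaults ignore strand, and drop reads with more than 1 alignment or more than 1 overlapped gene, and 9 members overlap exons of another gene. Of the table's count columns, 4 match no sample here and were not used.

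Genes were filtered with filterByExpr (minimum count 10, minimum total 15), which left 11870, scaled with TMM factors and tested by quasi-likelihood F statistics in edgeR 4.0.16 (limma 3.58.1, R 4.3.3), with Benjamini-Hochberg adjustment over all tested genes and calls below 0.05. SE is the log2 fold change divided by the square root of F, and log2 CPM has a prior count of 1. P-values of the list alone were not computed. FPKM here is CPM per kilobase of the deposited length. Subunit sums, medians and motif shares carry no test. The procedure was tested on simulated data. Replicates differed beyond sampling noise (chi-square per degree of freedom 10.8 to 37.5 over 20 pairs, genes with at least 20 counts).

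The members and lists were chosen with earlier results of these data known. Values per animal are given for the 5 largest falls per subunit among called members, and the 2 members with the highest level per length, and others by group. No called rises met the rule. Promoters came from RefSeq (GRCm38.p6), and 63 of the 67 windows start within 100 bases of the counted gene's 5′ end. Alternatives were RLE, upper-quartile and no scaling factors, other filters, a replicate block, 1 surrogate variable (sva 3.50.0), an endothelial covariate, DESeq2 1.42.0, voom, a length offset and leaving out each animal.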

Additional observations from a re-analysis of the deposited data

Results flagged for a closer look

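Library totals, mean levels per subunit and named members were examined within each genotype, 34 sets of 5 values in all. In 3 of them 1 animal stood off by more than 0.71 of the range, where about 1.7 would by chance. Heterozygote 1 had 25237696 counts in all, and the next deepest heterozygote had 10309615. Without heterozygote 1, 27 members were called lower, and the share of all genes called in that fit is not given here. For Mrpl12, heterozygote 2 lay at 8.97 log2 CPM and the next highest heterozygote at 8.34. For Mrps21, knockout 2 lay at 5.35 log2 CPM, below a next lowest knockout of 5.82.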

How the results depend on the processing

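With library totals alone, 24 members, 5 small-subunit genes and 13 partner genes were called lower, and all calls split into 760 lower and 1684 higher, against 1025 and 1216 with TMM factors and 1162 and 1083 with upper quartiles. With the endothelial covariate 1051 genes were called in all, 17 members lower (12 large, 5 small), and 9 partners. With the length offset 1 member was called higher (Mrpl33), 6 small-subunit genes were lower, and the subunit medians differed by -0.0692. When single animals were left out, members called lower numbered 23 to 43, large-subunit genes 17 to 29, small-subunit genes 5 to 14 and partners 12 to 31, and the medians differed by -0.0564 to -0.00697. The replicate block gave 31 members lower (24 large, 7 small). For the replicate block and for the fits with an animal left out, the share of all genes called is not given here. Same-numbered animals did not deviate together (correlations -0.06 to 0.19 over 5 pairs, 2 of 5 best with their own number), so the numbers were not used to pair them. Of 294 combinations of the 14 named members and 21 alternatives, 289 kept their direction and side of the threshold, 4 were weaker, 1 was stronger and 0 reversed. Leaving out the 9 members with shared exons, chosen after seeing the data, left 35 lower. The sign of the log2 fold change was negative in all 22 fits for 67 of 76 members. In the main fit alone it was negative for 74 members and for 5904 of all 11870 tested genes. The fits share their animals, and the share of all genes negative in every fit is not given here.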
